A study of Mus musculus with 2 samples.

Results

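The genes described here are 10 keratins and bile duct-type genes of mouse liver tumours: Krt8, Krt18, Krt19, Krt7, Epcam, Sox9, Tspan8, Tff2, Sprr1a and Fxyd3. They were chosen as a named list, and all 10 were found among the 32285 features of the deposited matrices. They were measured by droplet single-cell RNA sequencing in 1 library of control tumours (shCtrl, genotype label WT) and 1 library of tumours with a short hairpin RNA against the splicing factor Srsf10 (shSrsf10). The series title names hepatocellular carcinoma, the cancer of hepatocytes, and places the study in tumour immunity and immunotherapy. The strain, age and number of the mice, the way the hairpin was delivered and the cells that carry it are not given in the sources used here. Each group was 1 suspension, so no test between groups was made. Intervals are 95% intervals for the counting error alone.

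Keratins are the intermediate filament proteins of epithelial cells and assemble as pairs of a type I and a type II chain. Adult hepatocytes make the pair Krt8 and Krt18, while bile duct cells add Krt7 and Krt19, together with the adhesion molecule Epcam and the transcription factor Sox9. Liver progenitors and many liver cancers carry hepatocyte and duct genes side by side.

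Values were taken in tumour barcodes, a barcode being the tag of 1 droplet. A tumour barcode had at least 5000 UMIs (unique molecular identifiers, each counting 1 captured RNA molecule), 0 of the leukocyte gene Ptprc, at least 5 of the liver genes Ttr, Afp and Alb together and 0 of the endothelial genes Pecam1 and Cdh5. None of the 10 genes entered this rule. It kept 6176 of 9920 shCtrl barcodes, with a median of 18083.5 UMIs, and 3599 of 7553 shSrsf10 barcodes, with a median of 27638 UMIs. The libraries held 143327661 and 136419902 UMIs and shared 67 barcode sequences, which 41 shCtrl and 32 shSrsf10 tumour barcodes carried. Srsf10 itself stood at 45.5 CPM (UMIs scaled to 1000000 UMIs of the tumour barcodes) in shCtrl and 19.3 CPM in shSrsf10, a log2 ratio of -1.24 (-1.31 to -1.16).

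The levels of marker genes of other cell types in the tumour barcodes differed between the libraries. The 5 T cell markers summed to 3.52 CPM in shCtrl and 12.7 CPM in shSrsf10, the 5 macrophage markers to 15.1 and 6.71, the 4 neutrophil markers to 22.0 and 28.8, the 3 B cell markers to 0.683 and 0.867, the 4 endothelial markers to 34.3 and 29.6, and the 4 fibroblast markers to 9.20 and 71.2. Of the fibroblast sum, Dcn made 8.58 and 68.1 CPM. Of the endothelial sum, Egfl7 made 31.9 and 25.9 CPM, so these sums rest mainly on 1 gene each. None of the markers was at 0. Their part in the differences below was not tested. In 1 alternative, barcodes with UMIs of 12 genes of other cell types were left out, which moved no member across the 1.5-fold line. Dcn and the endothelial markers were not among the 12 genes, so that alternative does not cover them.

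All 10 genes were above the background of free RNA, as read from T barcodes, in both libraries. T barcodes, with at least 2 UMIs of Cd3d, Cd3e and Cd3g, served as that background, since T cells should not make keratins. They numbered 386 in shCtrl and 2107 in shSrsf10, at a median of 2263.5 and 2687 UMIs, and 20 and 76 of them also met the tumour rule. The member CPM of tumour barcodes was 1.86 to 2.78 times that of all T barcodes, but T barcodes of at least 5000 UMIs, 104 and 540 in number, held 90.8% to 98.2% of the member UMIs found in T barcodes. Against the 282 and 1567 T barcodes under 5000 UMIs, chosen after this was seen, the tumour level was 6.64 to 28.8 times higher. With every barcode thinned to 1000 UMIs, the share of tumour barcodes holding Krt18 was 82.2% (81.2 to 83.1) for shCtrl and 89.6% (88.6 to 90.6) for shSrsf10, against 11.6% (7.86 to 16.4) and 10.3% (8.78 to 11.9) of the shallow T barcodes and 18.0% and 17.4% of all T barcodes. Epcam, the member with the lowest such share, was at 7.92% (7.26 to 8.62) and 5.06% (4.36 to 5.82), against 1.24% and 0.470%. Without thinning, Krt18 was seen in 99.9% and 99.97% and Epcam in 63.5% and 65.7% of tumour barcodes. Not every cell type lay below the tumour level. The 154 neutrophil barcodes of shCtrl, set by S100a8 and S100a9, held 92.3 CPM of Epcam, 129 of Sox9 and 373 of Fxyd3. Tumour barcodes there had 82.5, 113 and 355, and the other members were lower in neutrophil barcodes. In shSrsf10, Sprr1a was level at 1548 CPM. Of the 154, 26 also met the tumour rule. The 35 of the 154 with at least 5000 UMIs held 93.3%, 96.2% and 97.0% of those Epcam, Sox9 and Fxyd3 UMIs. The 76 B cell barcodes of shSrsf10 held 63.7 CPM (45.7 to 86.4) of Epcam, against 57.5 in tumour barcodes.

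**Figure D1:**
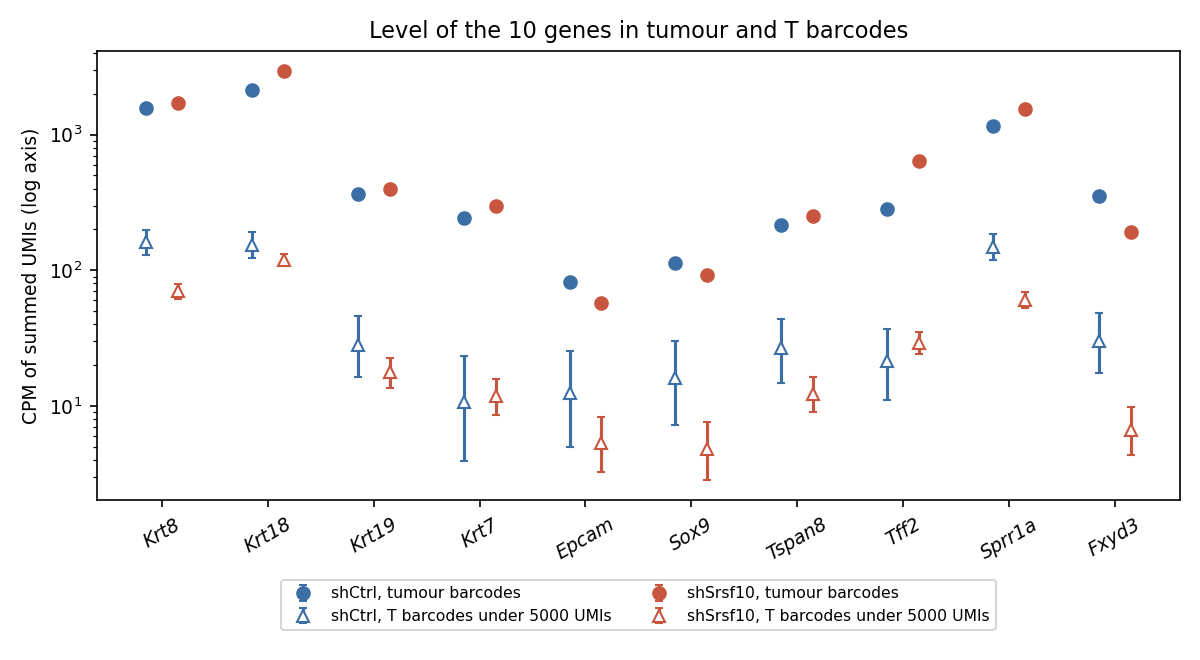
Level of each gene as CPM of summed UMIs on a log axis, in tumour barcodes (filled circles) and T barcodes under 5000 UMIs (open triangles) of the shCtrl and shSrsf10 libraries; bars are exact 95% Poisson intervals. Each circle lies 6.64 to 28.8 times above the triangle of its own library.

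Other duct genes were found only in part. The members that define ducts, Krt19, Krt7, Epcam and Sox9, summed to 800 CPM in shCtrl and 845 CPM in shSrsf10, beside 8999.6 and 5561 CPM of the liver genes Ttr, Afp, Alb, Apoa1 and Trf. Ttr, Afp and Alb belong to the tumour rule, so the liver sum rests in large part on genes that chose the barcodes. Several duct genes were plainly present: the annexin Anxa4 was at 243 CPM in shCtrl and 269 CPM in shSrsf10, the claudin Cldn4 at 139 and 148 CPM, the surface protein Cd24a at 62.7 and 60.7 CPM and the anion exchanger Slc4a2 at 10.9 and 9.70 CPM. Others of the same list were nearly missing: Cftr, the chloride channel of bile secretion, had 0 UMIs in shCtrl and 6 in shSrsf10, Sctr, the secretin receptor, had 2 and 1, and the water channel Aqp1 had 26 and 20. The junction gene Cldn7 had 0 UMIs in both libraries, which allows up to 0.0486% of shCtrl and 0.0834% of shSrsf10 tumour barcodes with a UMI. For Cdh1, the E-cadherin of epithelial junctions, 0.308% (0.185 to 0.480) of the shCtrl and 0.583% (0.362 to 0.891) of the shSrsf10 tumour barcodes had a UMI, whereas Vim, the intermediate filament of mesenchymal cells, was seen in 97.1% and 98.6%. These genes were picked with their values known, and the barcodes are called tumour barcodes by their rule.

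Between the libraries, the 10 genes did not differ in 1 direction. Tff2 was more than 1.5-fold higher in shSrsf10, Fxyd3 more than 1.5-fold lower, and the other 8 lay between. Among all 14827 genes with at least 20 UMIs, 9.37% were at least 1.5-fold higher and 12.8% at least 1.5-fold lower, so 1 of 10 in each direction is near the background. In either direction it was 2 of 10, against 22.1% of all genes. The median log2 ratio of the members was 0.18, against -0.06 for all genes tested, with 7 members above 0 and 3 below.

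The hepatocyte keratin pair was uneven. Krt18, the type I chain (chromosome 15, 102028180 to 102032027, + strand of GRCm38), stood at 2133 CPM (2125 to 2141) in shCtrl and 2922 CPM (2912 to 2932) in shSrsf10, a log2 ratio of 0.45 (0.45 to 0.46). Krt8, its type II partner on the same chromosome (101996698 to 102004482, - strand), was at 1567 (1560 to 1574) and 1713 CPM (1705 to 1721), a log2 ratio of 0.13 (0.12 to 0.14). Both chains were in nearly every tumour barcode, so the difference lay in the number of molecules per barcode. Krt8 made up 42.4% (42.2 to 42.5) of the UMIs of the pair in shCtrl and 37.0% (36.8 to 37.1) in shSrsf10. Per barcode thinned to 5000 UMIs, the median Krt8 part was 42.1% (quartiles 31.8 and 52.4) over 5942 shCtrl and 36.4% (27.3 and 45) over 3529 shSrsf10 barcodes with at least 5 UMIs of the pair. The quartile ranges overlapped. They include counting error at 5000 UMIs per barcode, which was not separated from differences among barcodes.

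The duct keratins differed little between the libraries. Krt19, a type I chain of ducts and progenitors (chromosome 11, 100140810 to 100148665, - strand), was at 363 CPM (359 to 366) in shCtrl and 398 CPM (394 to 401) in shSrsf10, a log2 ratio of 0.13 (0.11 to 0.15). Krt7, a type II chain of ducts (chromosome 15, 101411043 to 101430313, + strand), was at 242 (240 to 245) and 298 CPM (295 to 301), a log2 ratio of 0.30 (0.27 to 0.32). At 5000 UMIs per barcode, Krt19 was seen in 64.1% (62.9 to 65.3) and 62.4% (60.8 to 64.0), and Krt7 in 60.2% (58.9 to 61.4) and 61.3% (59.7 to 62.9), intervals that overlap in both cases. Most tumour barcodes of both libraries therefore carried RNA of a duct keratin as well as of the hepatocyte pair.

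Epcam and Sox9, the duct genes that are not keratins, were lower in shSrsf10. Epcam (chromosome 17, 87635979 to 87651129, + strand), a cell adhesion molecule of progenitors and ducts, was at 82.5 CPM (81.0 to 84.1) in shCtrl and 57.5 CPM (56.1 to 58.9) in shSrsf10, a log2 ratio of -0.52 (-0.57 to -0.48). It was just inside the 1.5-fold line, and it was seen in 29.0% (27.9 to 30.2) and 23.1% (21.8 to 24.6) of barcodes at 5000 UMIs. Sox9 (chromosome 11, 112782224 to 112787760, + strand), the transcription factor that specifies duct cells, was at 113 CPM (111 to 115) and 92.0 CPM (90.3 to 93.8), a log2 ratio of -0.29 (-0.33 to -0.26), and was seen in 39.0% (37.8 to 40.2) and 32.2% (30.7 to 33.8). Both genes were scarce, with means of 0.384 and 0.286 UMIs per 5000 for Epcam and 0.567 and 0.449 for Sox9, so a lower level shows mainly as fewer holding barcodes.

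Fxyd3 had the lowest ratio of the 10 members. It encodes a small membrane protein that regulates the sodium pump (chromosome 7, 31068172 to 31076704, - strand). Its level was 355 CPM (352 to 358) in shCtrl and 193 CPM (191 to 196) in shSrsf10, a log2 ratio of -0.88 (-0.90 to -0.86). At 5000 UMIs, 74.3% (73.2 to 75.4) of the shCtrl and 49.5% (47.9 to 51.2) of the shSrsf10 barcodes held it, and 39.9% against 21.3% held 2 to 4 UMIs. The gene was thus widespread in the shCtrl barcodes and, at this depth, not detected in 50.5% of the shSrsf10 barcodes. Fxyd5, another pump regulator, was level between the libraries, at a log2 ratio of -0.00.

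Tff2 had the highest ratio of the 10 members and was unevenly spread over barcodes. It encodes a secreted trefoil peptide that protects mucous surfaces, mainly of the stomach (chromosome 17, 31141049 to 31144282, - strand). Its level was 282 CPM (279 to 285) in shCtrl and 636 CPM (632 to 641) in shSrsf10, a log2 ratio of 1.17 (1.15 to 1.19). At 5000 UMIs, 26.8% (25.7 to 28.0) of the shCtrl and 50.2% (48.6 to 51.9) of the shSrsf10 barcodes held it, a share 1.87 times higher, while the mean in holding barcodes was 1.22 times higher. The 10% of barcodes with most Tff2 held 80.8% of its UMIs in shCtrl and 59.4% in shSrsf10, against 21.7% and 21.1% for the abundant Krt18, 48.96% and 46.2% for Sprr1a and 50.5% and 54.1% for the scarce Epcam. Of the stomach markers Gkn1, Gkn2, Muc5ac and Pgc, the first 3 were at 0 UMIs in both libraries and Pgc was at 0.455 and 0.407 CPM. Of the mesothelial markers, Msln was at 0.558 and 0.779 CPM, Upk3b had 3 and 2 UMIs, and Lrrn4 had 0 in both.

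Tspan8 and Sprr1a were moderately higher in shSrsf10. Tspan8, a tetraspanin of the cell membrane (chromosome 10, 115816832 to 115849893, + strand), was at 214 CPM (212 to 217) and 250.5 CPM (248 to 253), a log2 ratio of 0.23 (0.20 to 0.25). Sprr1a, a proline-rich protein of cornified skin and a gene of injured tissue (chromosome 3, 92483952 to 92485895, - strand), was at 1156 CPM (1150 to 1162) and 1548 CPM (1541 to 1556), a log2 ratio of 0.42 (0.41 to 0.43). Sprr1a ranged widely among barcodes of 1 library, from 0 UMIs per 5000 in 35.6% of shCtrl and 28.9% of shSrsf10 barcodes to 202 and 184 in the highest. Its ratio was smaller within each of 4 depth ranges, at 0.18 to 0.31, and ran from 0.71 in barcodes with low to 0.17 in those with high liver gene level.

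**Figure D2:**
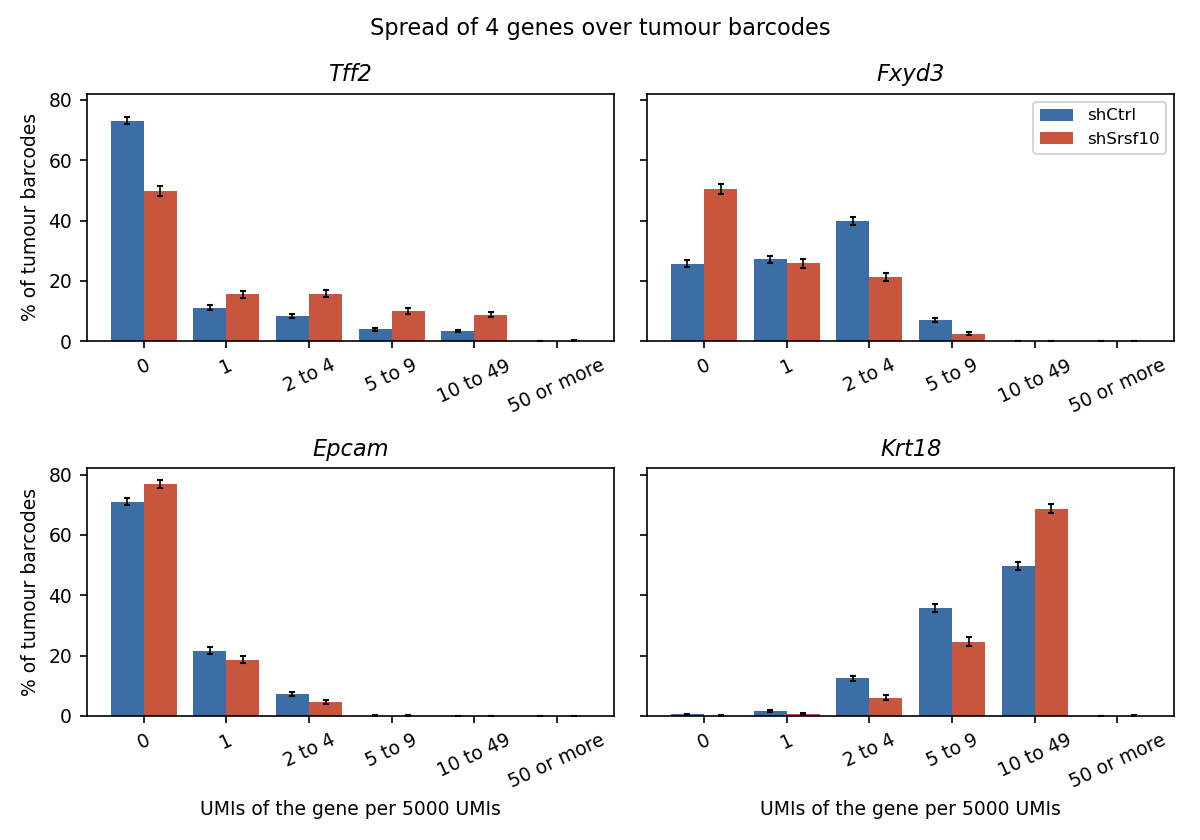
Share of tumour barcodes by the number of UMIs of Tff2, Fxyd3, Epcam and Krt18 after thinning each barcode to 5000 UMIs, in 6176 shCtrl and 3599 shSrsf10 barcodes; bars are exact 95% binomial intervals. Barcodes without Tff2 were 73.2% in shCtrl and 49.8% in shSrsf10, barcodes without Fxyd3 25.7% and 50.5%, and 49.8% and 68.7% held 10 to 49 UMIs of Krt18.

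RefSeq promoter windows (GRCm38.p6) were matched for 7 of the 10 members. The windows of the 2 lower genes Fxyd3 and Epcam and of the higher gene Sprr1a are shown as examples from both directions. In the 250 bases before the RefSeq start, Krt7 and Tspan8 also held motif matches, and Krt8 and Krt18 held none. The Krt7 matches, all GC boxes, lay past the first base that GENCODE vM21 gives as exon. The Tspan8 match, a FOXA core, ran into exon. The windows shown run 5′ to 3′ on the gene's strand and end before the first exon base. Capitals mark matches, on either strand, to 5 motifs, and no matches shared bases. The TATA box was searched as TATAAA. The AP-1 motif, bound by Fos and Jun proteins, was searched as TGANTCA. The GC box, bound by Sp1, was searched as GGGCGG. The core motif of FOXA factors, which are liver and duct regulators, was searched as TGTTTAC. The core motif of TEAD factors, the partners of YAP, was searched as CATTCC. The Sprr1a window is chr3:92485896-92486131 on the - strand, the Fxyd3 window chr7:31076705-31076947 on the - strand and the Epcam window chr17:87635729-87635978 on the + strand.
Sprr1a: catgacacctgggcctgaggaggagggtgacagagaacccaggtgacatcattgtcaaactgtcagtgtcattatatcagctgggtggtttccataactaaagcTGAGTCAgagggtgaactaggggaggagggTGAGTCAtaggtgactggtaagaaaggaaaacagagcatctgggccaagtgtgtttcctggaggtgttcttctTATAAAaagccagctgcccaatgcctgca
Fxyd3: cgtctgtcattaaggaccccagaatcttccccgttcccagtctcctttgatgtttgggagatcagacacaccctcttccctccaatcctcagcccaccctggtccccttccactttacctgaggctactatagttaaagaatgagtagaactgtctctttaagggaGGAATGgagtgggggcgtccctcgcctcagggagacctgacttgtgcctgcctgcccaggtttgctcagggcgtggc
Epcam: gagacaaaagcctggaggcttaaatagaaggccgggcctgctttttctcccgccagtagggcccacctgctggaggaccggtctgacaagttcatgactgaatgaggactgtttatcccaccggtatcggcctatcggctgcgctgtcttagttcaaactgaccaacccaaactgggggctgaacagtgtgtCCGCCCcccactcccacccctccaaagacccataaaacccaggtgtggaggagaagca
The Sprr1a window held the AP-1 motif starting 146 and 116 bases before the RefSeq start and the TATA box 43 bases before it. In the Fxyd3 window the TEAD core lay on the opposite strand at 84 bases, and in the Epcam window the GC box lay on the opposite strand at 58 bases. Of all 32851 windows of 250 bases, the AP-1 motif was in 6.75%, the TATA box in 12.4%, the TEAD core in 12.6%, the GC box in 32.7% and the FOXA core in 3.17%. These are matches of letters, and no binding was measured.

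Tumour barcodes of shSrsf10 were deeper, and part of the members' ratios went with depth. In 4 depth ranges, each at 5000 UMIs per barcode after thinning, Tff2 kept a log2 ratio between 0.83 and 1.20, Fxyd3 between -1.21 and -0.72, Epcam between -0.62 and -0.34, and Krt18 between 0.19 and 0.45. The sign of Krt8 depended on depth, at -0.32 (-0.40 to -0.23) among barcodes of 5000 to 10000 UMIs and 0.25 (0.19 to 0.31) above 40000. Krt19 ran from -0.46 to 0.09, Krt7 from -0.15 to 0.31 and Sox9 from -0.59 to 0.05. The shallowest range held 1057 shCtrl and 205 shSrsf10 barcodes and the deepest 430 and 900. The differences of Krt8, Krt19, Krt7 and Sox9 between the libraries thus did not hold at every depth, while those of Tff2, Fxyd3, Epcam, Krt18, Tspan8 and Sprr1a kept their direction in all 4 ranges.

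**Figure D3:**
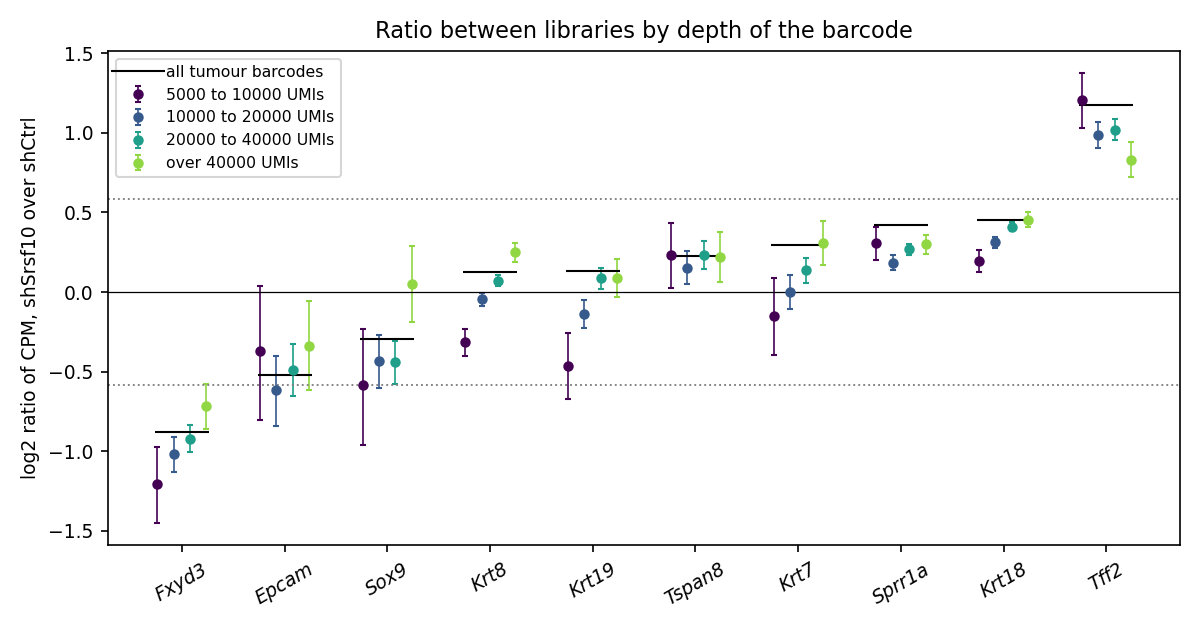
Log2 ratio of CPM, shSrsf10 over shCtrl, of each gene in 4 ranges of barcode depth (points, thinned to 5000 UMIs, with exact 95% intervals) and over all tumour barcodes without thinning (black bars); dotted lines mark a 1.5-fold difference. Tff2 lies at 0.83 to 1.20 and Fxyd3 at -1.21 to -0.72 in the 4 ranges, while Krt8 crosses 0.

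Cell cycle and liver gene level were examined in the same way. Barcodes with at least 2 UMIs of Mki67 and Top2a, genes of dividing cells, made up 10.2% of shCtrl and 9.70% of shSrsf10 tumour barcodes. In both libraries these cycling barcodes had less Krt19 (log2 difference from the others -0.72 in shCtrl and -0.82 in shSrsf10), Krt7 (-0.59 and -0.54) and Sprr1a (-0.67 and -0.37). The ratio of Tff2 between libraries was 0.65 (0.51 to 0.80) in cycling and 1.25 (1.20 to 1.29) in other barcodes, and that of Sprr1a 0.70 (0.61 to 0.79) and 0.40 (0.38 to 0.43).

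A score of 13 secreted or metabolic liver genes, leaving out Ttr, Afp and Alb, cut the pooled barcodes of both libraries into 3 groups of similar size. The low group held 28.9% of shCtrl and 47.4% of shSrsf10 barcodes. Within each library, Tff2 was lower in the high than in the low group (log2 difference -0.69 in shCtrl and -0.56 in shSrsf10), as was Krt7 (-0.24 and -0.56), whereas Tspan8 was higher (0.59 and 0.56). Between the libraries, Tff2 was at 0.95, 1.36 and 1.08 in the low, middle and high group, and Fxyd3 at -0.86, -0.93 and -0.99. Krt7 was at 0.29 and 0.28 in the low and middle groups and at -0.02 (-0.13 to 0.08) in the high one.

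Co-expression was described at 5000 UMIs per barcode, which evens the number of UMIs but leaves the shared library, the base of liver RNA and differences that go with the original depth. Barcodes above 40000 UMIs held more of several members after thinning than those of 5000 to 10000: the log2 difference was 1.30 in shCtrl and 0.93 in shSrsf10 for Tff2, 0.59 and 1.05 for Krt7, 0.41 and 0.96 for Krt19 and 0.89 and 0.88 for Sprr1a. The part of this depth in the pairs below was not tested. Of 45 pairs, the Pearson r of ln(1 + UMIs) had a median of 0.06 in shCtrl and 0.08 in shSrsf10, and 2 pairs were above 0.3 in both libraries. These were Krt8 with Krt18 (0.52 and 0.56) and Krt8 with Sprr1a (0.32 and 0.37). Krt19 and Krt7 had an r of 0.22 and 0.33, and barcodes with Krt19 held Krt7 more often, at 65.5% (63.9 to 66.9) in the shCtrl and 69.8% (67.9 to 71.7) in the shSrsf10 library, against 50.7% (48.6 to 52.8) and 47.1% (44.4 to 49.8) among barcodes without Krt19. Epcam and Sox9 showed no such pairing: Sox9 was held by 38.3% (36.1 to 40.6) of shCtrl barcodes with Epcam and 39.3% (37.8 to 40.7) without, and by 31.7% (28.5 to 35.0) and 32.4% (30.7 to 34.2) in shSrsf10. All 4 of Krt19, Krt7, Epcam and Sox9 were held together by 5.31% (4.76 to 5.90) of the shCtrl and 4.14% (3.51 to 4.84) of the shSrsf10 barcodes, and none of the 4 by 8.01% (7.35 to 8.72) and 11.9% (10.9 to 13.1).

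**Figure D4:**
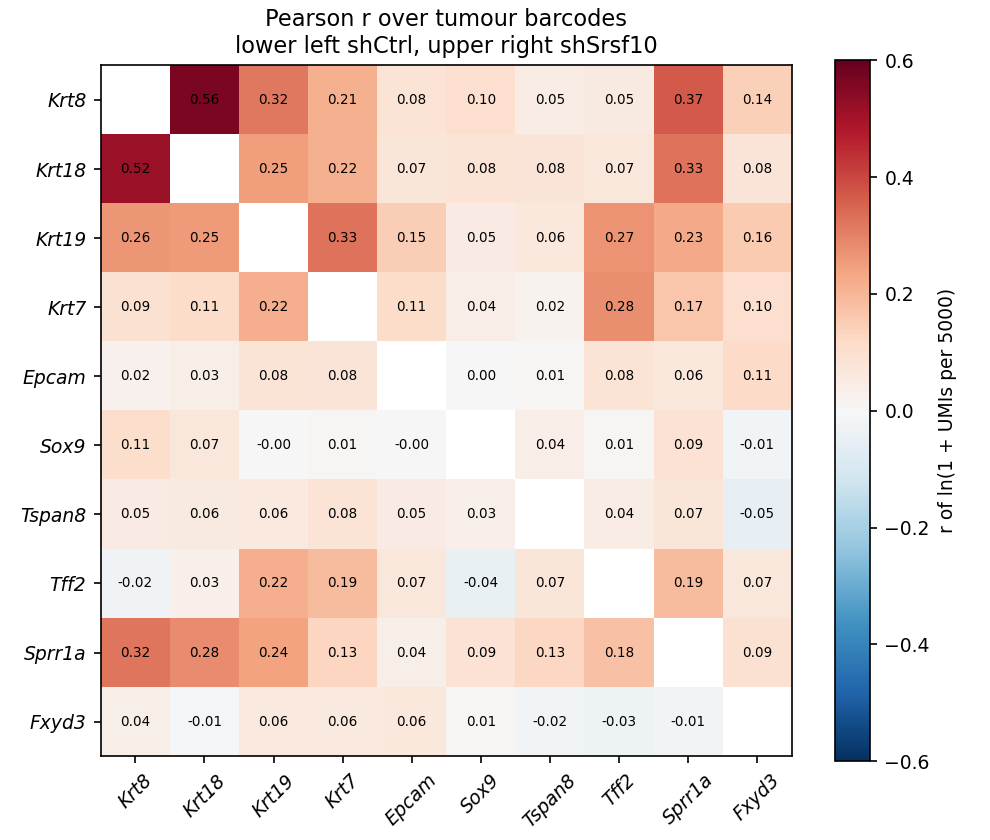
Pearson r of ln(1 + UMIs per 5000) between the 10 genes over tumour barcodes, shCtrl in the lower left and shSrsf10 in the upper right; each square is 1 pair, coloured from -0.6 to 0.6. Krt8 with Krt18 stands out at 0.52 and 0.56, and all pairs of Epcam, Sox9, Tspan8 and Fxyd3 lie between -0.05 and 0.16.

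Barcodes were also grouped by their Tff2 level. Those with at least 10 Tff2 UMIs per 5000 numbered 217 (3.51%) in shCtrl and 321 (8.92%) in shSrsf10. They held more Krt19, at a mean of 3.63 UMIs in shCtrl and 3.24 in shSrsf10, against 1.51 and 1.40 in barcodes without Tff2, and 87.6% and 88.8% of them held Sprr1a, against 60.6% and 64.7%. Krt7 was at 2.19 and 2.20 against 0.995 and 1.00, and the sister gene Tff1, a stomach trefoil peptide, at 2.36 and 0.941 against 0.0259 and 0.0503. They held less of the thyroid hormone carrier Ttr, at 2.86 and 1.06 against 15.9 and 6.68, and less serum albumin, Alb, both genes of the tumour rule. Alb was at 9.00 and 7.08 against 12.0 and 9.32. Afp, the other liver gene of the rule, was not lower, at 8.99 and 5.93 against 7.87 and 5.83. The duct gene Sox9 did not follow Krt19 and Krt7 in shCtrl, at 0.488 against 0.591, and was at 0.470 against 0.444 in shSrsf10. Krt8 was nearly level, at 7.49 and 9.02 against 7.86 and 8.16.

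**Figure D5:**
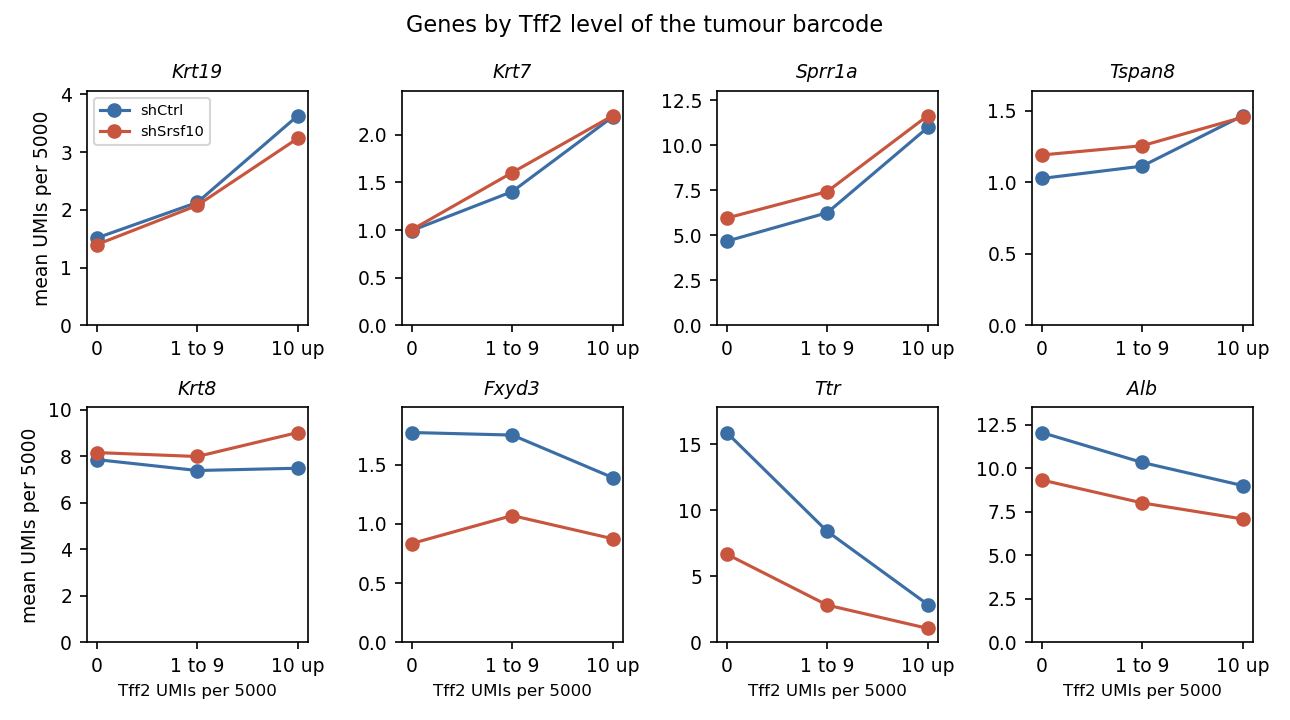
Mean UMIs per 5000 of 8 genes in tumour barcodes with 0, 1 to 9 and at least 10 UMIs of Tff2, for shCtrl and shSrsf10. Krt19, Krt7 and Sprr1a are higher where Tff2 is higher in both libraries, Ttr and Alb are lower, and Fxyd3 is lower in shSrsf10 in each of the 3 groups.

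The genes most like each member over tumour barcodes were sought among 5259 genes, by the lower r of the libraries. Tff2 was closest to S100a6 (r 0.37 in shCtrl and 0.50 in shSrsf10), Tff1 (0.48 and 0.36) and Lgals1 (0.33 and 0.41). Krt19 was closest to Lgals3 (0.40 and 0.52), S100a6 (0.35 and 0.42) and Tmsb10 (0.29 and 0.30), and Krt7 to S100a6 (0.29 and 0.38), Lgals1 (0.21 and 0.28) and Lgals3 (0.21 and 0.34). Among the genes closest to both Krt8 and Krt18 were Actg1 (0.34 and 0.36 with Krt8, 0.37 and 0.40 with Krt18) and Tnfrsf12a (0.34 and 0.30, 0.35 and 0.32). Sprr1a was closest to S100a6 (0.28 and 0.32), Tnfrsf12a (0.25 and 0.27) and Lgals3 (0.29 and 0.25). Fxyd3 was closest to Dmkn (0.20 and 0.20), weaker values than those of Krt7 with S100a6. For Epcam, Sox9 and Tspan8 the lower r was at most 0.09, 0.11 and 0.17. These weak values are descriptions only.

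Related gene lists were read beside the 9.37% of all genes that were higher and the 12.8% that were lower. Of 9 keratins outside the members with at least 20 UMIs, 4 were at least 1.5-fold higher and 1 lower, and the list's median log2 ratio was 0.56, the value of Krt4 with 92 and 120 UMIs. Krt10, a keratin of skin with 2156 and 1896 UMIs, was level at -0.01. Krt23, a type I keratin of the liver and gut, was the lower one, at 63.1 CPM in shCtrl and 18.5 CPM in shSrsf10 (log2 ratio -1.77, -1.84 to -1.70). Krt5, a keratin of basal cells, was at 5.85 and 10.5 CPM (0.84, 0.71 to 0.97), and Krt20, a keratin of gut and stomach lining, at 0.08. Krt80 was at 0.74 from 68 and 101 UMIs. The other higher keratins, Krt6a with 12 and 47 UMIs and Krt14 with 19 and 43, were scarce.

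Of 20 bile duct genes outside the members, 4 were lower, against 12.8% of all genes, and none higher, and the list's median was -0.11. Onecut2, a factor of liver and duct development, was at -1.22 (-1.31 to -1.14), the secreted phosphoprotein Spp1 at -0.87 (-0.95 to -0.79) and the cilia channel gene Pkd2 at -0.73 (-0.94 to -0.52), and the scarce Dcdc2a had 28 and 13 UMIs. Of 15 junction genes, 1 was higher and 3 lower, with a median of -0.22: the desmosome genes Dsc2 and Dsp, whose product anchors keratin filaments, were at -0.79 and -0.70, the tight junction scaffold Tjp1 at -0.59 and the pore-forming claudin Cldn2 at 1.21. Of 10 keratin filament partners, only Dsp passed 1.5-fold, and the list had a median of -0.12.

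Of 8 gastric and mucous genes, 3 were higher and 2 lower, and the list's median was 0.05. Reg3g, a secreted antibacterial lectin of gut lining, had 21 UMIs in 12 shCtrl barcodes and 1264 UMIs in 390 shSrsf10 barcodes, a log2 ratio of 6.08 (5.47 to 6.78). The trefoil gene Tff3 was at 0.63 (0.55 to 0.71), and Tff1 at -0.19, so Tff1 lay in the opposite direction to Tff2. Muc13, with 10 and 16 UMIs, was the other higher gene, and Gkn3, with 18 and 9, and Vsig1, with 42 and 24, were the lower ones. Of 8 SPRR and cornified envelope genes, 2 were higher and 5 lower, with a median of -0.90, against the direction of Sprr1a. Ivl, involucrin of the cornified envelope, was at -1.66, Sprr2h at -1.37, Sprr2e at -1.23, Sprr1b at -0.81 and Tgm1 had 18 and 8 UMIs. The higher ones were Sprr2a3, with 28 and 43 UMIs, and Flg, with 8 and 16. Sprr2 genes are near-identical copies, so the count of each may be unreliable. The 1290 and 442 Sprr2h UMIs lay in 381 shCtrl and 119 shSrsf10 barcodes.

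Of 15 Notch and YAP pathway genes, a list of regulators of duct fate and of target genes of the pathways, 2 were higher and 1 lower, and the list's median was 0.20. The YAP target genes Ankrd1 and Ccn1 were at 1.46 (1.35 to 1.58) and 0.73 (0.70 to 0.75). The receptor Notch2 was at -0.61 (-0.73 to -0.48) and the Notch target Hes1 at -0.45. The Notch pathway genes Jag1, at 0.41 (0.33 to 0.48), and Notch1, at 0.33 (0.06 to 0.60), lay in the other direction. Of 7 FXYD and sodium pump genes, 1, Fxyd6 with 8 and 23 UMIs, was higher and none lower, with a median of -0.00. Of 18 tetraspanins 1 was higher and 1 lower, with a median of 0.03. Tspan13 was the higher one, at 0.68 from 43 and 61 UMIs, and Tspan7, with 18 and 7, the lower. Of 18 hepatocyte identity genes, 9 were lower and 1 higher, and the list's median was -0.66: the protease inhibitor Serpina1a was at -1.60, the plasma protein Ambp at -1.39, the fibrinogen chain Fgg at -1.31 and the urea cycle enzyme Ass1 at 0.79.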

How the data were processed

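Droplet libraries of 1 shCtrl and 1 shSrsf10 tumour suspension were read from the deposited matrices of whole-number UMI counts, not normalized by the authors; Cell Ranger 6.1.0 and build mm10 are named per the submitters' processing notes. The labels name both a 5′ and a 3′ kit, a sort whose gate is not stated and a slow spin that settles hepatocytes, without saying which fraction was loaded. UMIs were summed over barcodes that met the rules in the text and given as CPM. Poisson, Clopper-Pearson and conditional binomial intervals used scipy 1.17.1. Thinning drew UMIs without replacement (numpy 2.4.6). No doublets were removed except as an alternative (Scrublet in scanpy 1.11.5). For 38 symbols with several IDs, the ID with most UMIs was kept. Coordinates are from GENCODE vM21, which matched 32158 of 32285 IDs. Where 1 library had no UMI of a gene, its ratio used 3 counts. From each list, up to 3 genes in each direction past 1.5-fold with at least 100 UMIs were named. Cftr, Sctr, Aqp1, Cldn7, Cdh1, Cldn3, Jup, Ocln, Vim, Krt20, Krt4, Krt10, Anxa4, Cldn4, Cd24a and Slc4a2 were added once their values were known. So were Tff1, Hes1, Jag1, Notch1, Fxyd5 and the scarce list genes given by UMIs. Interval code was checked on simulated data. The members and lists were chosen with earlier results of these data known. Some genes near the members by correlation are not reported here.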

Additional observations from a re-analysis of the deposited data

How the results depend on the processing

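Under 15 alternatives, 2 of them (barcodes in both libraries and barcodes that meet the T rule left out) chosen after seeing the data, none of the 10 members changed the sign of its ratio or its side of the 1.5-fold line. Another 2, which set the UMIs a gene needed at 100 or 1, could not change a member's ratio. Tff2 ran from 1.11 without UMIs of other cell types to 1.38 without the 1% of barcodes holding most of it, Fxyd3 from -0.94 to -0.82, and Epcam, nearest to the line, from -0.58 to -0.42. The members' median of 0.18 was 0.21 without UMIs of other cell types, 0.16 with barcodes thinned to 5000 UMIs and 0.23 when centred on the median gene, which shifts every ratio by 0.06. Of the 127 related genes with at least 20 UMIs, 15 were higher and 26 lower; with at least 100 UMIs 9 of 104 were higher, and with at least 1 UMI 29 of 153, which follows from the genes tested. No paired analysis was possible because each group was 1 library. Differences between the libraries cannot be told apart from differences between suspensions, sorts or mice. Co-expression and list medians were not rerun under the alternatives.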
